A study of Mus musculus with 105 samples.

Results

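The clustered protocadherins are neighbouring genes for cadherin-type adhesion proteins that lie in 3 tandem clusters on mouse chromosome 18. They were taken from the deposited gene count matrix by symbol, which gave 58 of its 53379 gene rows: 14 in the alpha cluster, 22 in the beta cluster and 22 in the gamma cluster. The selection by symbol used no expression value, but it was made with earlier results of these data known. In the GENCODE vM21 annotation of the mm10 genome, the alpha members span chr18:36930184-37187661, the beta members span chr18:37264938-37524479 and the gamma members span chr18:37661793-37841873.

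Poly(A) RNA of mouse samples had been sequenced with a stranded kit, all from C57BL/6 mice or lines of that strain. The 45 line libraries came from B16 melanoma cells, B16 cells labelled OVA (B16OVA), MCA101 fibrosarcoma cells labelled OVA (MCA101OVA) and MC38 colon adenocarcinoma cells. Each line was sampled as Setdb1 knockout cells (KO), as cells labelled Ctrl and as WT cells, with 3 libraries per group (6 per group in B16OVA). All cancer cells, WT included, were listed as grown with puromycin. The labels do not say what the Ctrl cells carry, how the gene was disrupted, or whether a KO population is 1 clone. A further 5 libraries came from melanocytes of newborn WT mice, cultured for 2 to 3 weeks, and 48 came from 12 tissues of WT female mice (4 libraries each, age not given). 7 single WT line libraries, whose library codes have a prefix of their own, are described only at the end. The labels do not say what the code prefixes stand for. Nothing in the labels says that libraries of a line group come from separate cultures, so their p-values may measure technical spread alone.

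In the alpha and gamma clusters, each member has its own large first exon behind its own promoter, and that exon is spliced to constant exons shared by the whole cluster. Beta members are single-exon genes with no constant part. In mouse neurons, most promoters are chosen cell by cell, with CTCF, cohesin and DNA methylation at the promoters taking part, and the resulting surface mixture lets a neuron tell its own branches from those of others. The C-type members (Pcdhac1, Pcdhac2, Pcdhgc3, Pcdhgc4 and Pcdhgc5) sit at the ends of the alpha and gamma clusters and are used more evenly across neurons. Setdb1 writes histone H3 lysine 9 trimethylation, and in mouse neurons its loss is known to change the folding and expression of this locus.

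Library totals were 17186211 to 50393024 counts in the lines, 19863405 to 30593253 in melanocytes and 53591239 to 254103370 in tissues. Levels are given as CPM, each count divided by the library total and scaled to 1000000. Setdb1 itself had 19.2, 11.7 and 20.6 CPM in B16 KO and 62, 59.5 and 65.1 CPM in B16 Ctrl. In B16OVA it had a lowest, median and highest value of 15.6, 33.0 and 49.9 CPM in KO and 21.1, 77.3 and 99.4 CPM in Ctrl. MCA101OVA had 36.7, 20.4 and 26.7 CPM in KO and 95.7, 45.7 and 62.6 CPM in Ctrl. In MC38, KO libraries had 60.05, 85.3 and 74.1 CPM, and the Ctrl libraries had 54.9, 122.7 and 124.9 CPM. Setdb1 mRNA was called lower in KO in the other lines and not in MC38 (log2 fold -0.52, SE 0.28, adjusted p = 1), so KO is used for MC38 as its label. In 8 line libraries and 1 stomach library, counts fell with transcript length (a slope under -0.15), and 3 of these, all Ctrl, held the lowest gamma sums of their lines: 23.5 CPM in B16OVA Ctrl replicate 2, 34.99 CPM in MCA101OVA Ctrl replicate 2 and 8.98 CPM in MC38 Ctrl replicate 1. The members' own exons are long, with medians of 2480 bases in alpha, 3714 in beta and 2630 in gamma. Reads in the shared constant exons belong to several genes at once, so a member's count rests mainly on its own exons. Whether counting used strand is not stated.

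The 3 clusters were used very differently in the lines. Alpha genes were close to silent, with summed levels of 0 to 0.597 CPM over all 45 line libraries, and none of the 14 passed the low-count filter there. Beta sums averaged 10.2 ± 2.77 CPM in B16 KO, 20.1 ± 1.92 in B16 Ctrl and 26.7 ± 5.08 in B16 WT (SD, n = 3 each). They averaged 18.3 ± 8.21, 26.4 ± 11.9 and 28 ± 13.8 CPM in B16OVA KO, Ctrl and WT (SD, n = 6 each). In B16 the KO libraries, at 7.72 to 13.2 CPM, lay below the Ctrl libraries, at 18.03 to 21.8 CPM, while the B16OVA ranges overlapped. The beta sums were 6.26 ± 1.14, 3.61 ± 2.33 and 7.65 ± 1.81 CPM in MCA101OVA KO, Ctrl and WT, and 31.4 ± 9.78, 23.9 ± 9.17 and 33.1 ± 12.9 CPM in MC38 KO, Ctrl and WT (SD, n = 3 each). The ranges of KO and Ctrl overlapped in both of these lines. Within a bulk library, fewer cells using a promoter and less RNA per cell cannot be told apart.

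Gamma sums were the highest of the 3 clusters in every line group. They averaged 75.6 ± 10.8 CPM in B16 KO, 87 ± 18.3 in B16 Ctrl and 84.4 ± 12.05 in B16 WT, and 82.8 ± 7.64, 77.6 ± 30.2 and 89.0 ± 13.4 CPM in B16OVA KO, Ctrl and WT. MCA101OVA averaged 132 ± 33.4, 103 ± 61.5 and 126 ± 9.82 CPM in KO, Ctrl and WT, and MC38 averaged 101 ± 17.8, 74.7 ± 57 and 116 ± 12.3 CPM. KO and Ctrl ranges overlapped in every line. Without the libraries of low slope, the B16OVA sums were 82.7 ± 8.53 CPM in KO and 88.4 ± 16.2 in Ctrl (n = 5 each), and the MC38 sums were 101 ± 17.8 CPM in KO and 108 ± 2.80 in Ctrl (n = 3 and 2). MCA101OVA then had 113 ± 0.218 CPM in KO and 137 ± 24.2 in Ctrl (n = 2 each).

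**Figure D1:**
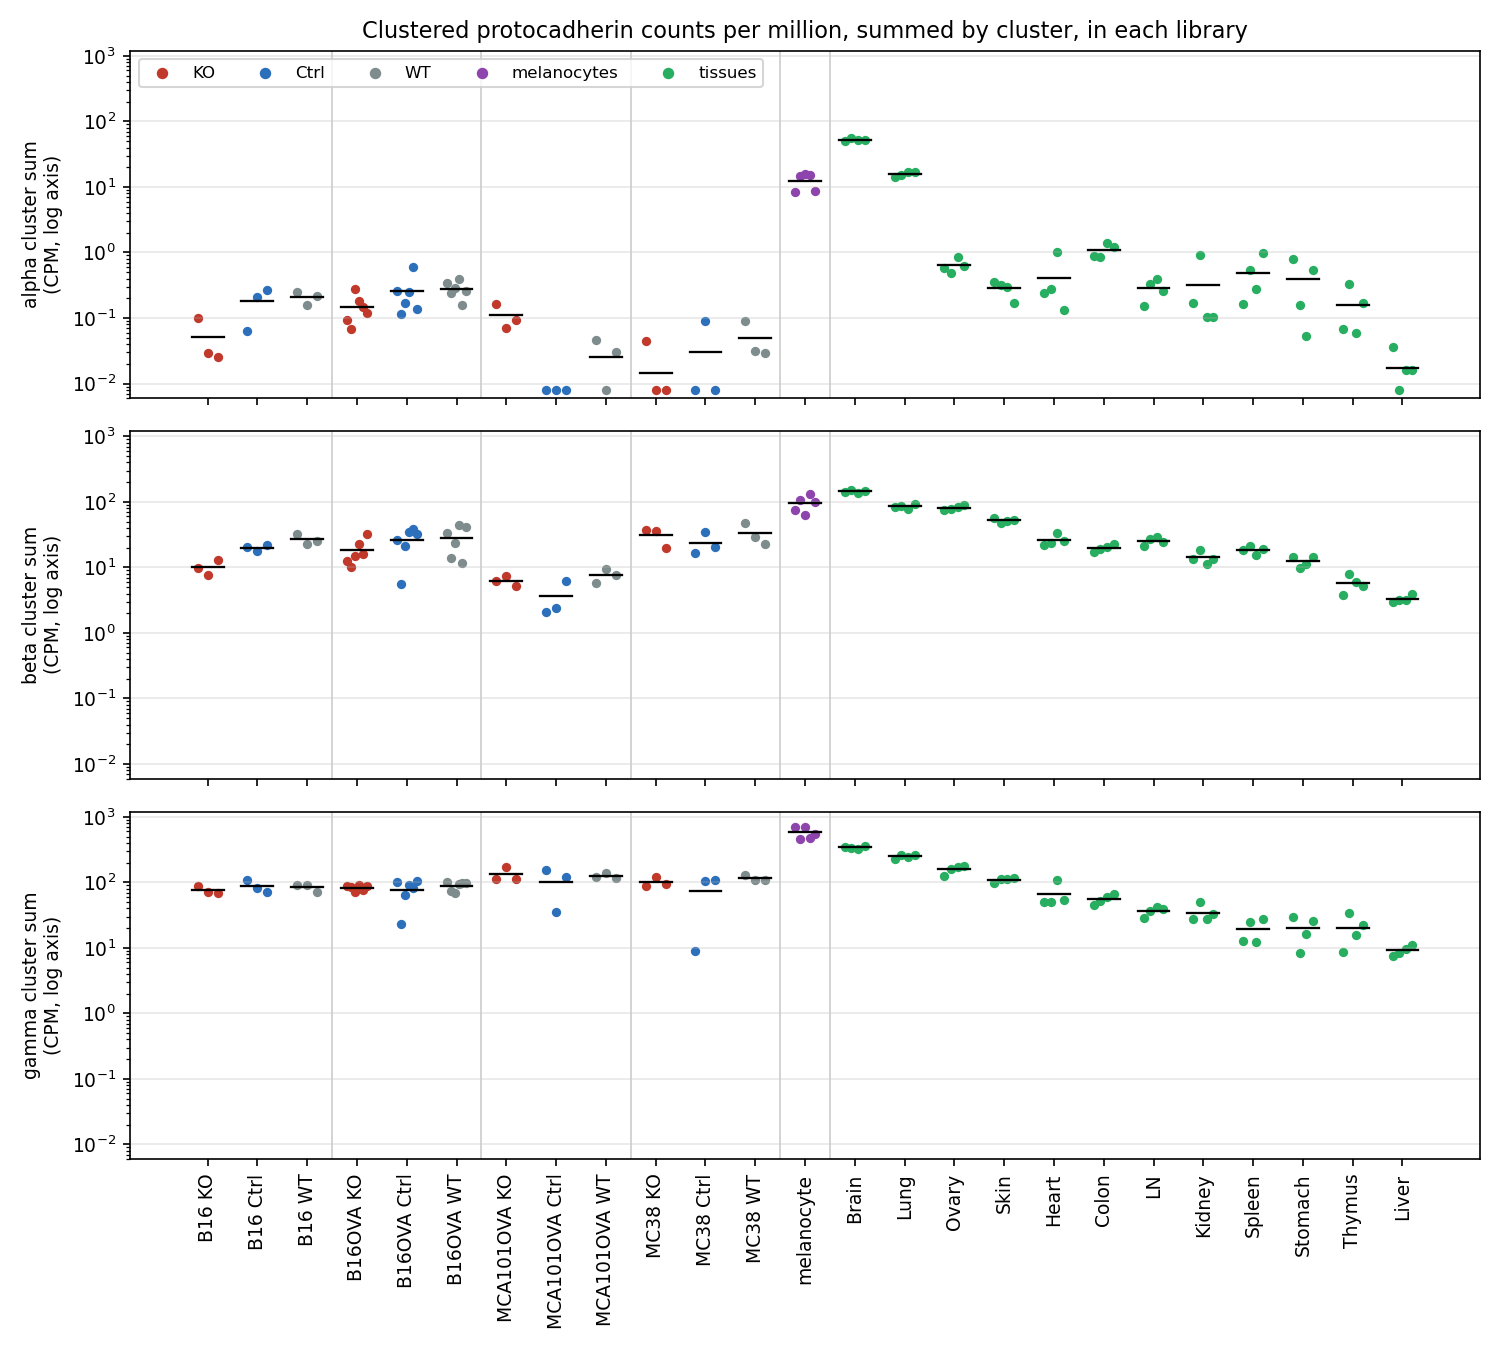
Summed CPM of the alpha, beta and gamma members (log axis) in each library, with group means as lines. Groups run from the KO, Ctrl and WT groups of each line to melanocytes and tissues, and libraries with no alpha count are drawn at the lower edge. Line libraries reach at most 0.597 CPM for alpha, against 50.02 to 56.1 CPM in brain.

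A single gene made up most of each line's gamma sum, and the gene differed between lines. In the melanoma lines it was Pcdhgb2, a gamma-B adhesion protein, which averaged 61.2 CPM in B16 KO, 77.2 in B16 Ctrl and 75.4 in B16 WT. Its averages were 61.5, 64.1 and 73.03 CPM in B16OVA KO, Ctrl and WT. Pcdhgc3, a C-type member known in mouse neurons for promoting dendrite branching and binding Axin1, stayed at 1.499 CPM or less in all 27 melanoma line libraries. In MCA101OVA and MC38 it was the leading gene: Pcdhgc3 averaged 116, 100 and 121 CPM in MCA101OVA KO, Ctrl and WT and 91.1, 71.97 and 112 CPM in MC38 KO, Ctrl and WT. Pcdhgb2 averaged 0.909 CPM in MCA101OVA WT and 0.547 CPM in MC38 WT.

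The share of the leading gene was smaller in KO than in Ctrl in each line. Pcdhgb2 made up 81.2 ± 2.45% of B16 KO gamma counts and 89.0 ± 1.97% of B16 Ctrl gamma counts, with ranges of 78.3 to 82.6% and 86.8 to 90.7%. In B16OVA the shares were 74.4 ± 3.77% in KO (69.4 to 79.2%) and 83.8 ± 5.09% in Ctrl (79.1 to 91.8%), so the ranges overlapped at one edge. Pcdhgc3 made up 88.1 ± 1.25% of MCA101OVA KO gamma counts (86.7 to 89.1%) and 97.1 ± 0.354% in Ctrl (96.7 to 97.4%). In MC38 it made up 90.4 ± 2.70% in KO (87.6 to 93.0%) and 94.1 ± 4.43% in Ctrl (88.9 to 96.7%), and these ranges overlapped. The 20 gamma genes other than Pcdhgb2 and Pcdhgc3 summed to 14.4 ± 4.02 CPM in B16 KO and 9.82 ± 3.86 in Ctrl, and to 21.3 ± 4.55 CPM in B16OVA KO and 13.4 ± 7.16 in Ctrl. They summed to 8.76 ± 3.30 CPM in MCA101OVA KO and 2.32 ± 1.20 in Ctrl, and to 6.71 ± 2.26 CPM in MC38 KO and 2.33 ± 1.27 in Ctrl. Their KO and Ctrl ranges did not overlap in MCA101OVA and MC38, and overlapped in both melanoma lines.

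**Figure D2:**
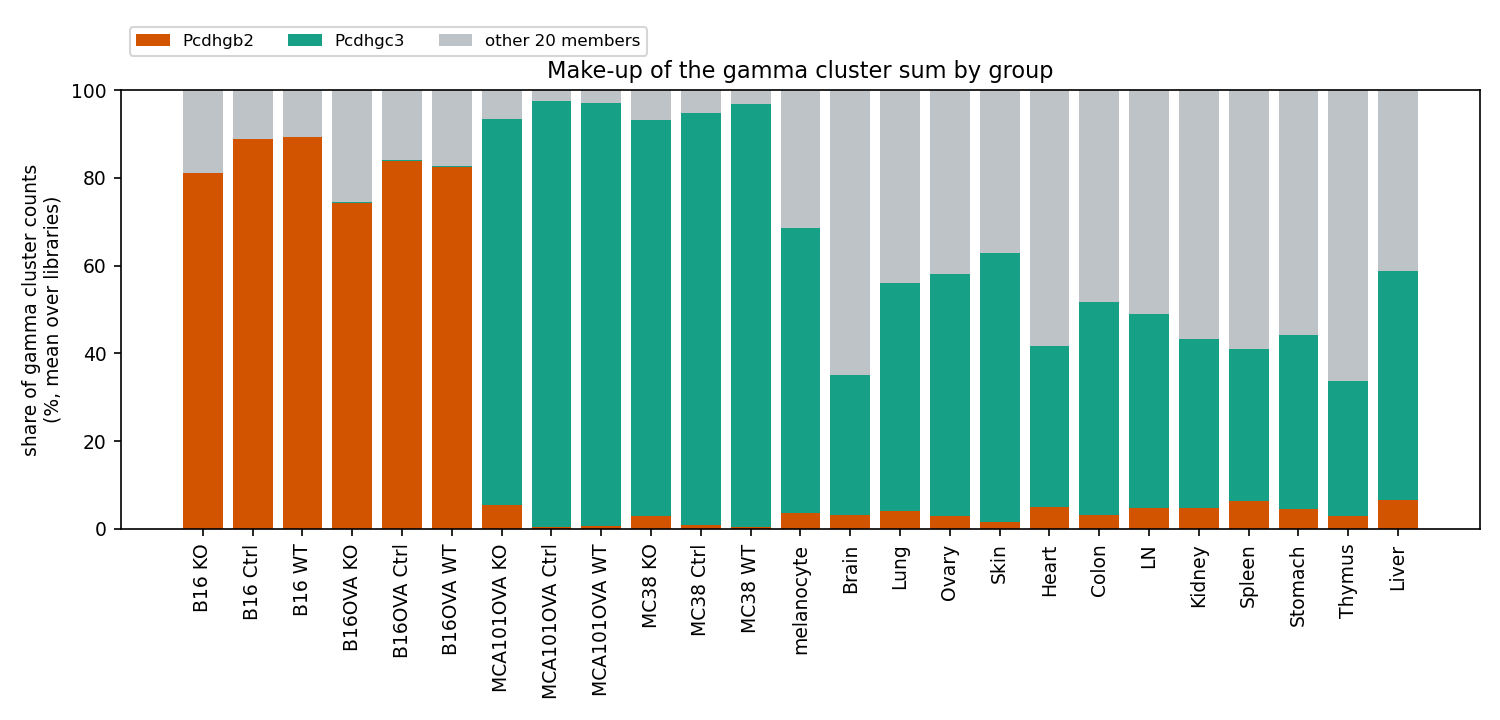
Percent of gamma counts from Pcdhgb2, from Pcdhgc3 and from the other 20 gamma members, as stacked bars of the means over the libraries of each group. Pcdhgb2 leads in B16 and B16OVA, with 74.4 to 89.4% on average, and Pcdhgc3 leads in MCA101OVA and MC38, with 88.1 to 97.1%; melanocytes have 65.1% Pcdhgc3.

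The comparison of KO with Ctrl asks which genes of the clusters respond when Setdb1 is disrupted. In B16, 2 gamma genes were called higher in KO and 1 beta gene lower, out of 30 members tested (16 beta and 14 gamma). Of all 16809 genes tested in that comparison, 0.69% were called at an adjusted p under 0.05 with edgeR's quasi-likelihood test (0.66% higher and 0.0297% lower in KO). Pcdhgc5, a C-type member of neurons that binds GABA-A receptors, had 3.06, 1.98 and 1.47 CPM in B16 KO and 0.0213, 0.0300 and 0.0296 CPM in B16 Ctrl. The KO libraries held 277 counts and the Ctrl libraries 3, a ratio of summed CPM of 85.5 (95% counting interval 28.9 to 417), and the adjusted p was 7.27e-05. Pcdhga12, the last gamma-A gene before the C-type genes, had 2.97, 0.962 and 1.39 CPM in KO and 0.0213, 0 and 0.0592 CPM in Ctrl. That was 235 against 3 counts, a ratio of 72.5 (24.5 to 354), with an adjusted p of 0.000633. Fitted on the 6 KO and Ctrl libraries of B16 alone, Pcdhgc5 stayed past the threshold (adjusted p = 0.0213) and Pcdhga12 did not (adjusted p = 0.0898). Pcdhga12 passed the low-count filter only through KO libraries of the lines, so here its direction was set by the filter. Of the 11 gamma genes that passed without any KO library, 1 was called higher in B16. Pcdhgc5 and Pcdhga12 were near 0 in every Ctrl library and near or above 1 CPM in every KO library. Pcdhb11 had 0.101, 0.117 and 0.152 CPM in KO and 1.24, 0.990 and 0.710 CPM in Ctrl, so the groups lay apart in the other direction. Its log2 fold was -2.90 (SE 0.56, adjusted p = 0.00263). Without B16 KO replicate 1 its adjusted p was 0.0691, and on the 6 libraries of this line alone it was 0.131.

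B16OVA, with 6 libraries a group, gave calls at some of the same genes. 3 gamma genes were called higher and 1 beta gene lower of the 30 tested, where 1.05% of all genes were called (0.994% higher and 0.0595% lower). Pcdhgc5 had a lowest, median and highest level of 2.13, 3.66 and 4.86 CPM in KO and 0, 0.134 and 0.328 CPM in Ctrl, and its log2 fold was 4.65 (SE 0.59, adjusted p = 1.02e-06). For Pcdhga12 the values were 0.514, 2.61 and 3.82 CPM in KO and 0, 0.0917 and 0.298 CPM in Ctrl, with a log2 fold of 4.26 (SE 0.64, adjusted p = 3.44e-05). No Ctrl library reached the lowest KO library for either gene. Pcdhga12 passed the low-count filter only through KO libraries of the lines, so its direction was set by the filter. Of the 11 gamma genes that passed without any KO library, 2 were called higher. Pcdhb5 fell, with 0.240, 0.346 and 0.431 CPM in KO and 0.697, 1.09 and 1.82 CPM in Ctrl (log2 fold -1.81, SE 0.33, adjusted p = 0.000514). Its KO libraries all lay below its Ctrl libraries.

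The remaining B16OVA gene rested on few counts. Pcdhgb7 had 80 counts over the 6 KO libraries and 12 over the Ctrl libraries, with 0.237, 0.390 and 0.647 CPM in KO and 0, 0.0186 and 0.268 CPM in Ctrl as the lowest, median and highest values. The groups overlapped through B16OVA Ctrl replicate 5. Its log2 fold was 2.5 (SE 0.60, adjusted p = 0.0211), and the call was lost when any 1 of B16OVA KO replicates 1 and 4 or Ctrl replicates 1, 3, 4 and 6 was left out (adjusted p up to 0.11). Pcdhb12 had 0.237, 0.713 and 1.14 CPM in KO and 0.581, 1.62 and 3.64 CPM in Ctrl as the lowest, median and highest values. It missed the threshold (log2 fold -1.47, SE 0.39, adjusted p = 0.0618). Pcdhb12 passed without MCA101OVA KO replicate 1, B16OVA KO replicate 6, MC38 WT replicate 1 or MC38 Ctrl replicate 3 (adjusted p = 0.0317 to 0.0493). Without B16OVA Ctrl replicate 2, Pcdhb12 and Pcdhb11 were both called (adjusted p = 0.0279 and 0.0376), which gave 6 members.

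Beyond the called genes, the 2 melanoma lines shared a direction in each cluster. In B16, 15 of 16 beta genes had a lower fitted level in KO than in Ctrl, with a median log2 fold of -1.32, and in B16OVA 14 of 16 did, with a median of -0.83. Against WT, 15 of 16 beta genes were lower in KO in each of these lines (medians -1.56 in B16 and -0.64 in B16OVA). Of the gamma genes with more than 3 counts in a group, 9 of 11 were higher in B16 KO (median 1.11) and 10 of 14 were higher in B16OVA KO (median 1.08). Over the 11 gamma genes that pass the low-count filter without any KO library, 8 were higher in B16 KO (median 0.55) and 7 in B16OVA KO (median 0.59). The median over all genes tested was 0.00 in B16 and -0.01 in B16OVA. The Spearman rank coefficient of the KO log2 fold with gene order was 0.84 over the 16 beta genes in B16. Over the 11 gamma genes with more than 3 counts in a B16 group it was 0.82, and over all 14 gamma genes tested it was 0.58. In B16OVA it was 0.79 over 16 beta genes and 0.47 over 14 gamma genes. In MCA101OVA it was 0.36 over 12 beta genes and -0.60 over 14 gamma genes, and in MC38 it was 0.59 over 15 beta genes and -0.18 over 14 gamma genes. Between Ctrl and WT, where no group is labelled KO, it lay between 0.01 and 0.28 for beta and between -0.34 and 0.71 for gamma, with the highest value in MCA101OVA. These coefficients describe neighbouring genes of the same libraries and carry no test. Pcdhga8, Pcdhga11 and Pcdhga12, which passed the low-count filter only through KO libraries, are among the gamma genes of the KO coefficients in each line. Pcdhb22, the last beta gene, had log2 folds of 0.71 in B16 and 0.43 in B16OVA, with neither called. Pcdhb16, the leading beta gene of both lines, averaged 4.93 CPM in KO and 8.38 CPM in Ctrl in B16, and 7.30 CPM in KO and 9.73 CPM in Ctrl in B16OVA, with no call in either.

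In MCA101OVA, the genes called were others. 2 gamma genes and 1 beta gene were called higher and none lower, where 0.345% of all genes were called (0.339% higher and 0.00595% lower). Pcdhgb7, called in B16OVA, was not called here but had 298 counts in KO, 50 in Ctrl and 90 in WT. Its KO effect minus that in B16OVA was -0.52 on the log2 scale (SE 0.83), with no call. In B16 it had 26 counts in KO and 3 in Ctrl, also with no call. Pcdhgb2 had 5.03, 10.4 and 6.42 CPM in KO and 0.701, 0.183 and 0.763 CPM in Ctrl (log2 fold 3.68, SE 0.42, adjusted p = 9.23e-07). Every KO library was above every Ctrl library, and the WT libraries, with 0.860, 0.990 and 0.877 CPM, lay just above Ctrl and far below KO. Pcdhgb1, its close relative upstream, had 1.07, 2.49 and 1.69 CPM in KO and 0.175, 0.0457 and 0.458 CPM in Ctrl (log2 fold 2.87, SE 0.53, adjusted p = 0.00204). Pcdhb22 had 1.98, 4.07 and 1.69 CPM in KO and 0.351, 0.365 and 0.305 CPM in Ctrl (log2 fold 2.81, SE 0.53, adjusted p = 0.00289).

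The WT libraries of MCA101OVA lay between these groups for both of the last genes: 0.604, 1.13 and 0.937 CPM for Pcdhgb1, overlapping KO, and 0.860, 1.02 and 0.786 CPM for Pcdhb22. With WT in place of Ctrl, the log2 fold of Pcdhgb1 was 1.065 (adjusted p = 1) and that of Pcdhb22 was 1.62 (adjusted p = 0.265), while Pcdhgb2 kept a log2 fold of 3.09 (SE 0.40, adjusted p = 5.85e-06). Leaving out MCA101OVA Ctrl replicate 1 gave an adjusted p of 0.0679 for Pcdhgb1 and of 0.0519 for Pcdhb22, so that 1 member was called. Leaving out KO replicate 2 gave 0.0618 for Pcdhb22. Without the libraries of low slope, Pcdhgb1 had an adjusted p of 0.054. Fitted on its 6 KO and Ctrl libraries alone, this line gave no call (adjusted p = 0.419 for Pcdhgb2).

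MC38 gave a single call, and again it was Pcdhgb2. It had 3.09, 3.18 and 2.44 CPM in KO and 0.124, 0.663 and 0.489 CPM in Ctrl, against 0.464% of all genes called, all of them higher in KO. The groups lay apart (log2 fold 2.67, SE 0.42, adjusted p = 0.00024), and WT libraries, with 1.03, 0.314 and 0.292 CPM, were below every KO library. On the 6 libraries of MC38 KO and Ctrl alone the adjusted p was 0.245. Pcdhgb1 rested on 15 counts in KO and 2 in Ctrl, a ratio of 10.2 (95% counting interval 2.37 to 91.7), and missed the threshold (adjusted p = 0.0814). Without MC38 Ctrl replicate 2 or B16OVA Ctrl replicate 2 it passed (adjusted p = 0.0433 and 0.0385), which made 2 members. Pcdhgb7 had 1.85, 2.59 and 1.05 CPM in MC38 KO and 0.0828, 0.512 and 0.338 CPM in Ctrl. Those groups also lay apart, but the gene missed the threshold (log2 fold 2.46, SE 0.69, adjusted p = 0.144). It passed with DESeq2 (adjusted p = 0.0193) and without the low-count filter (adjusted p = 0.0398).

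All 14 gamma genes tested had a higher fitted level in KO than in Ctrl in MCA101OVA (median log2 fold 2.01) and in MC38 (median 1.63), with all-gene medians of 0.01 and -0.01. Pcdhga8, Pcdhga11 and Pcdhga12 passed the filter only through KO libraries of the lines, and the other 11 had medians of 2.04 in MCA101OVA and 1.39 in MC38. Against WT, 12 of 14 were higher in MCA101OVA KO (median 1.72) and 11 of 14 in MC38 KO (median 1.23). Ctrl itself had a lower fitted level than WT for 9 of 14 gamma genes in MCA101OVA and 11 of 14 in MC38. In each of these lines, a Ctrl library of low slope held the lowest gamma sum. Without the libraries of low slope, mean gamma sums were lower in KO than in Ctrl in both lines. The log2 fold of Pcdhgb2 was then 2.93 in MCA101OVA and 2.31 in MC38, and that of Pcdhgb1 in MCA101OVA was 2.08. The directions of the 14 genes without those libraries are not given here. The leading gene was called in neither line. Pcdhgc3 had 100, 148 and 101 CPM in MCA101OVA KO and 150, 33.8 and 117 CPM in Ctrl, and 76.03, 109 and 87.9 CPM in MC38 KO and 7.99, 102 and 106 CPM in Ctrl. KO and Ctrl overlapped in both lines. The beta direction depended on the group compared. Against Ctrl the median log2 folds were -0.08 over 12 genes above 3 counts in MCA101OVA and 0.16 over 15 genes in MC38. Against WT they were -0.94 in MCA101OVA KO, with 14 of 15 lower, and -0.20 in MC38 KO, with 11 of 15 lower. Ctrl against WT gave -1.07 in MCA101OVA and -0.45 in MC38. The leading beta genes were Pcdhb22 in MCA101OVA KO (2.58 CPM) and Pcdhb17 in MCA101OVA Ctrl (0.646 CPM), and Pcdhb17 in both MC38 groups (5.83 CPM in KO and 4.18 CPM in Ctrl).

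**Figure D3:**
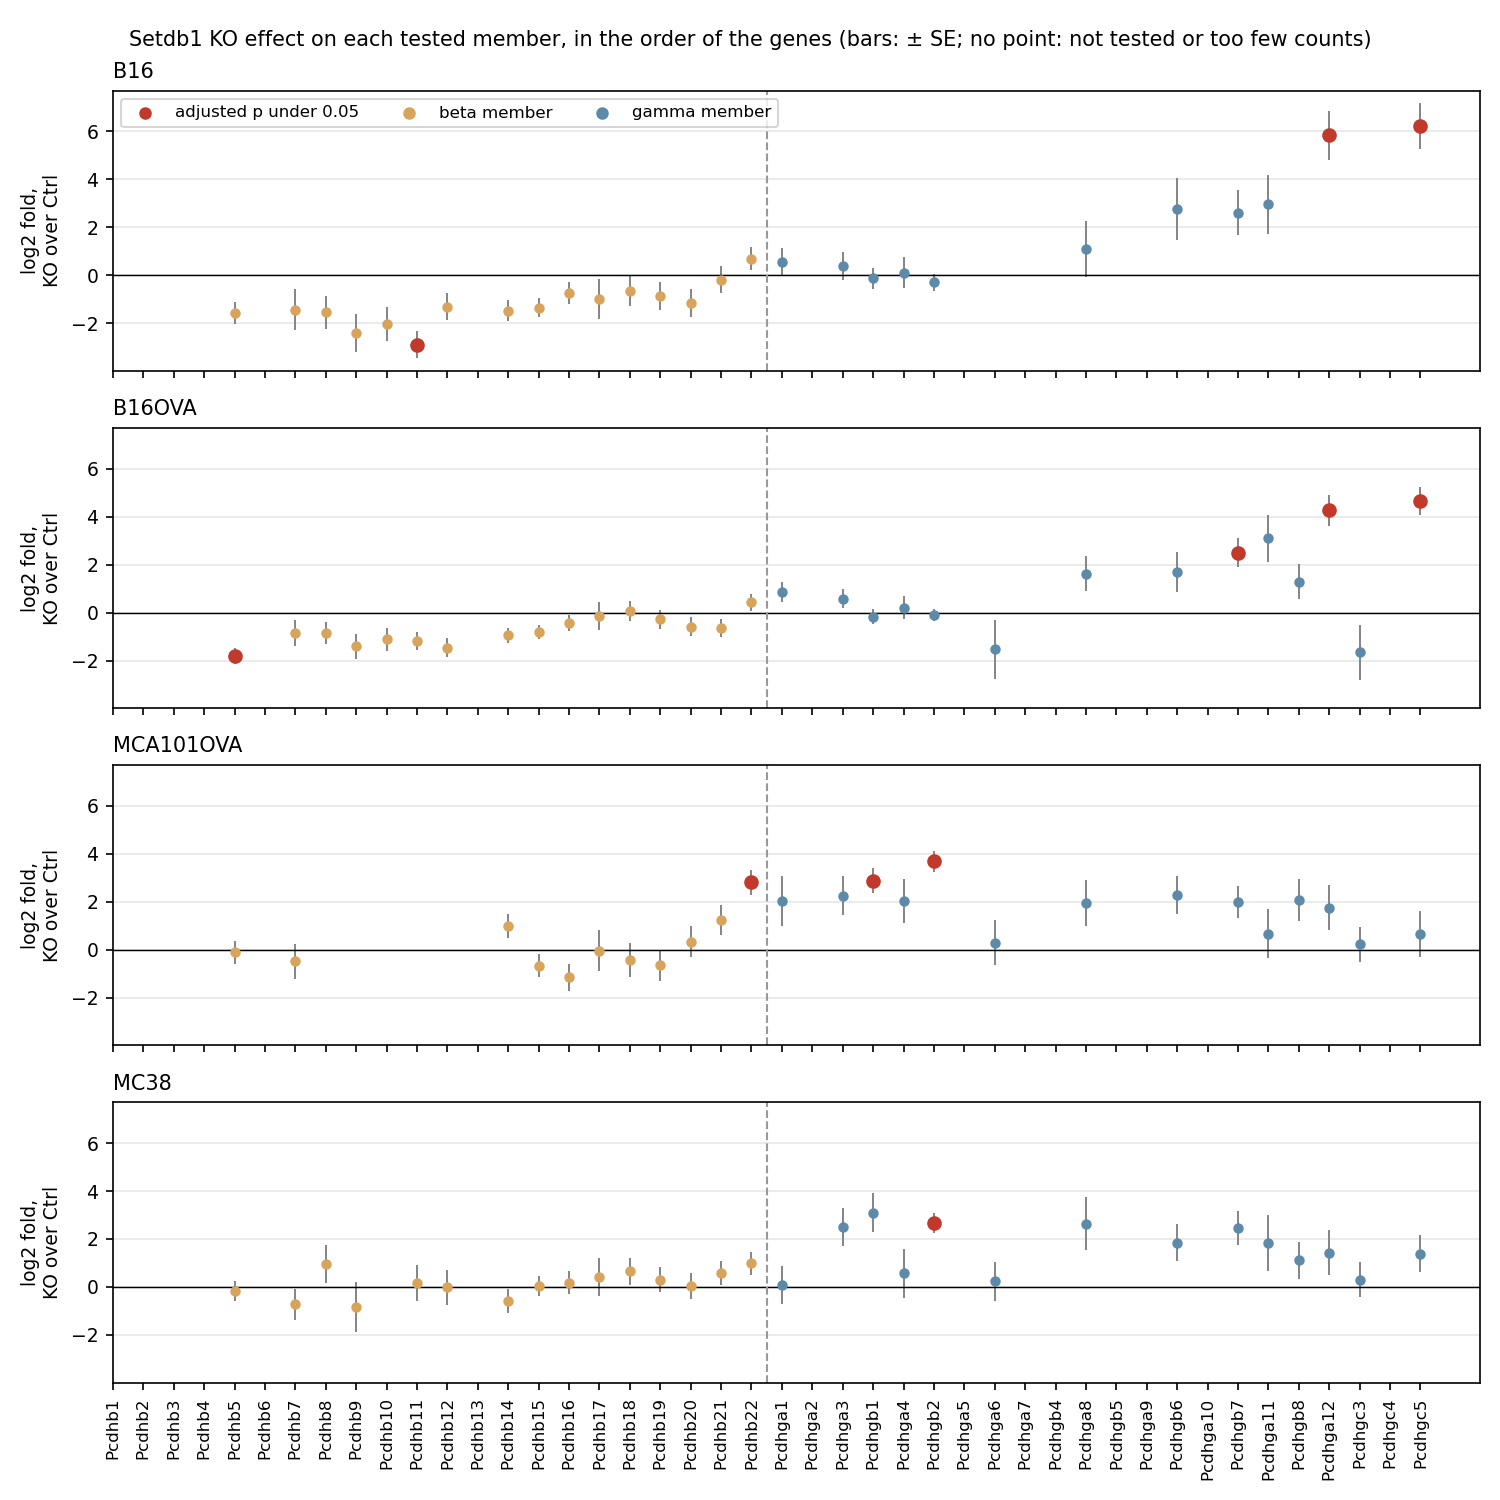
KO over Ctrl log2 fold with its SE for beta and gamma members in chromosomal order, 1 panel per line, with larger red points for called genes and bars for ± SE. Members at 0 in a group or with 3 counts or fewer in both are not drawn. In B16 and B16OVA the beta folds lie mostly below 0 and those at the gamma end above it, up to 6.22 for Pcdhgc5, while in MCA101OVA and MC38 all gamma folds over Ctrl lie above 0.

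**Figure D4:**
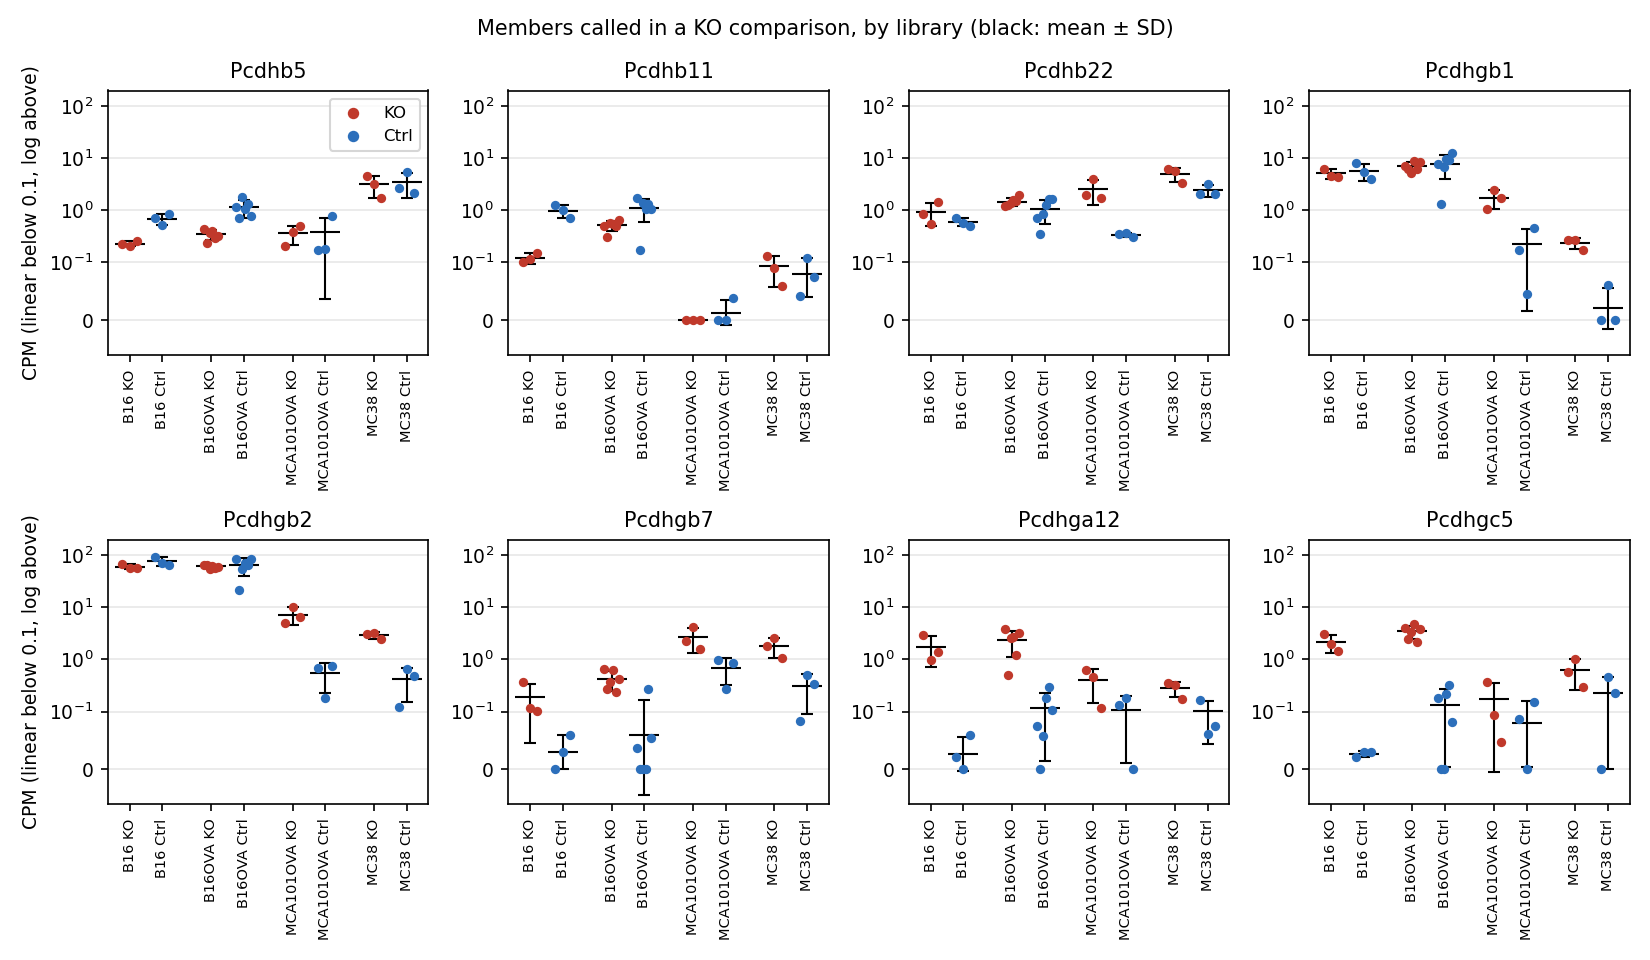
CPM of each gene called in a KO comparison, by library, for KO and Ctrl of the 4 lines, with the mean ± SD in black (axis linear below 0.1 CPM and logarithmic above). Pcdhgc5 and Pcdhga12 stand above Ctrl in the B16 and B16OVA KO libraries, and Pcdhgb2 stands above Ctrl in the KO libraries of MCA101OVA and MC38 while it is at 54.5 to 68.9 CPM in the KO libraries of B16 and B16OVA.

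The difference between lines was tested as an interaction, with the KO effect in B16OVA subtracted from that in another line. Pcdhgb2 differed between MCA101OVA and B16OVA by 3.80 on the log2 scale (SE 0.48, adjusted p = 3.34e-05) and between MC38 and B16OVA by 2.79 (SE 0.48, adjusted p = 0.00291). Of all genes, 0.101% were called in the MCA101OVA interaction (0.0535% higher and 0.0476% lower) and 0.262% in the MC38 interaction (0.202% higher and 0.0595% lower). Pcdhgb1 differed between MCA101OVA and B16OVA by 3.04 (SE 0.61, adjusted p = 0.0198). That call ended when MCA101OVA Ctrl replicate 1 or 2, or KO replicate 2, was left out (adjusted p = 0.227, 0.208 and 0.148). In MC38 the Pcdhgb1 interaction was called without B16OVA Ctrl replicate 2 (adjusted p = 0.0447). Pcdhgc5 and Pcdhga12, called in the melanoma lines, had interactions of -3.99 and -2.50 in MCA101OVA and -3.27 and -2.83 in MC38, none past the threshold (adjusted p = 0.306 or more), so a difference between lines was not shown for them. The Pcdhgc5 interaction did pass with DESeq2 in MCA101OVA (adjusted p = 0.0491) and without the libraries of low slope in MC38 (adjusted p = 0.0328). Between B16 and B16OVA no member, and 0% of all genes, was called; 1 member had an unadjusted p under 0.05, and no member was called with DESeq2.

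No member was called between Ctrl and WT in any line, and 0% of all genes were called by edgeR there, with no member called by DESeq2 either. At an unadjusted p under 0.05 there were 7 members in MCA101OVA, 1 each in B16 and MC38, and 0 in B16OVA. No member was called between B16OVA WT and B16 WT by edgeR or DESeq2, where 0.0238% of all genes were called and 2 members had an unadjusted p under 0.05.

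Other genes of the pathway are given against the 0.345 to 1.05% of all genes called in KO. Of 33 chromatin regulators and cohesin genes, Setdb1 itself was called in 3 lines, and Atf7ip, the partner that stabilises SETDB1, was called higher in B16OVA, with 227 ± 43.6 CPM in KO and 83.9 ± 38.0 CPM in Ctrl (log2 fold 1.44, SE 0.26, adjusted p = 0.000635). Ctcf and Rad21 were called in no line. None of 16 flanking genes of chromosome 18 was called by edgeR in any line, with 4 at an unadjusted p under 0.05 in MCA101OVA, 2 in B16OVA, 1 in B16 and 0 in MC38. None of 11 signalling partners was called, with 1 at that level in B16OVA and 1 in MC38. Of 8 non-clustered protocadherins tested, Pcdh17 was called higher in MCA101OVA, with 25.3 ± 10.3 CPM in KO and 1.53 ± 2.34 in Ctrl (log2 fold 4, SE 0.91, adjusted p = 0.0286). Pcdh1 was called higher in MC38, with 2.74 ± 1.26 CPM in KO and 0.435 ± 0.0888 in Ctrl (log2 fold 2.57, SE 0.48, adjusted p = 0.00241).

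Markers of other cell types were looked at beside the KO results. In B16OVA, Mbp, 1 of 4 glia markers tested, was called higher, with 114 ± 33.3 CPM in KO and 36.2 ± 5.88 CPM in Ctrl (log2 fold 1.49, SE 0.38, adjusted p = 0.0358). The glia markers summed to 107 to 230.2 CPM in B16OVA KO and 105.2 to 160 CPM in Ctrl, and none was at 0 throughout KO. Tubb3, the 1 neuron marker tested, had 160 ± 67.7 CPM in B16OVA KO and 271 ± 112 CPM in Ctrl (log2 fold -0.94, SE 0.30, adjusted p = 0.193). In B16 no glia or neuron marker was called, with 2 glia markers at an unadjusted p under 0.05. The part of the glia genes in the melanoma results was not tested.

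Pcdhgb2 is the gamma gene of the melanoma lines, so melanocyte markers were looked at beside its rise. The 6 markers summed to 4.70 to 14.5 CPM in MCA101OVA KO and 6.62 to 24.6 CPM in Ctrl, and to 0.397 to 0.582 CPM in MC38 KO and 0.301 to 3.10 CPM in Ctrl, against at least 22708 CPM in B16OVA WT libraries. None of the 6 was called by edgeR in any line (3 had an unadjusted p under 0.05 in MC38, all lower in KO), and 3 of 6 were at 0 in all MC38 KO libraries. Of 5 neuron markers, 1 was above 1 CPM in these lines. Their sum was 98.4 to 183 CPM in MCA101OVA KO and 70.1 to 104 CPM in Ctrl, and 110 to 117 CPM in MC38 KO and 64.5 to 75.7 CPM in Ctrl. Tubb3 was called in neither line (log2 folds 0.43 and 0.65). Fibroblast markers summed to 45.3 to 107 CPM in MC38 KO and 10.6 to 19.1 CPM in Ctrl, where Col1a1 and Col1a2 were called higher of 3 tested. The part of the neuron and fibroblast genes in the gamma results was not tested.

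Melanocytes, the untransformed counterpart of the melanoma lines, used all 3 clusters. Their alpha sum was 8.31, 14.4 and 15.6 CPM, their beta sum 62.9, 98.6 and 134 CPM and their gamma sum 458, 548 and 712 CPM (lowest, median and highest of 5). The leading genes were Pcdhac2 in alpha (mean 10.4 CPM), a C-type gene needed in mouse for the spacing of serotonin axons, Pcdhb22 in beta (21.4 CPM) and Pcdhgc3 in gamma (380 CPM), and 21 of 22 gamma genes averaged at least 1 CPM. Their other C-type genes were lower, with mean levels of 2.01 CPM for Pcdhgc4, 2.55 CPM for Pcdhgc5 and 0.057 CPM for Pcdhac1. Melanocyte replicate 1 held 13089 CPM of fibroblast markers and 12623 CPM of melanocyte markers. The other 4 held 123 to 1806 and 45710 to 65851 CPM.

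Against melanocytes, the 3 B16OVA WT libraries of the same code prefix were lower in 34 of 44 members tested and higher in 2, where 47.8% of all genes were called (22.3% higher and 25.5% lower). 17 of the 44, among them all 3 alpha genes, passed the low-count filter only through melanocytes, so their direction was set by the filter. Of the other 27, 18 were called lower (8 of 15 beta and 10 of 12 gamma genes) and the 2 higher genes were gamma genes. Pcdhgc3 had 0.264, 0 and 1.499 CPM in B16OVA WT and 449, 304.5, 517, 257 and 372 CPM in melanocytes (log2 fold -9.32, SE 1.02, adjusted p = 5.07e-07). Pcdhgb2 went the other way, with 72.5, 79.3 and 76.3 CPM in B16OVA WT and 24.2, 16.8, 17.5, 23.96 and 17.4 CPM in melanocytes (log2 fold 2.02, SE 0.32, adjusted p = 3.93e-05). Neither gene's groups overlapped. Pcdhgb1 had 11.3, 11.7 and 13.7 CPM in B16OVA WT and 7.65, 5.20, 6.86, 7.32 and 6.82 CPM in melanocytes. Its call (log2 fold 0.93, SE 0.38, adjusted p = 0.0467) was lost when any 1 of 17 libraries was left out (adjusted p up to 0.142). Pcdhb9, the member called lower by the least (log2 fold -1.41, adjusted p = 0.0477), lost its call without any 1 of 13 libraries, and Pcdhga4 and Pcdhga3 came next (-2.08 and -2.28).

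Further genes with large fitted differences were gamma and alpha genes. Pcdhgb6 had 3 counts in B16OVA WT and 1777 in melanocytes, a CPM ratio of 0.00245 (95% counting interval 0.000506 to 0.00718). The others named here passed the filter only through melanocytes and are given as levels. Pcdhga10, which an antisense gene overlaps, and Pcdhgb5 had at most 0.099 CPM in a B16OVA WT library, and 7.84 to 21.50 and 7.88 to 11.8 CPM in melanocytes. Pcdha12 had 0 counts in B16OVA WT and 114 in melanocytes. Pcdhac2 had 0.165, 0.0777 and 0.0957 CPM in B16OVA WT and 5.03 to 14.1 CPM in melanocytes. Without melanocyte replicate 1, 34 members were called in all.

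Members differed between B16OVA WT and the WT cells of the other tumour types in both directions. Against MC38 WT of the same code prefix, 11 of 44 members were higher and 8 lower, where 43.3% of all genes were called in either direction. The 19 calls are near the share of all genes, so their number does not set the clusters apart. Pcdhgb1 and Pcdhgb2 led, with 12.2 ± 1.29 and 76.04 ± 3.42 CPM in B16OVA WT and 0.0392 ± 0.0339 and 0.547 ± 0.422 CPM in MC38 WT (log2 folds 8.27 and 7.29, adjusted p = 3.31e-09 and 6.05e-10). Pcdhga3 (5.45) and Pcdhga4 (4.63) were the next gamma genes by log2 fold. Pcdhac2 was higher too, with 10 counts against 0, a CPM ratio of 3.81 if the 0 is set to 3 counts. Pcdhgc3 was lower, with 0.587 ± 0.80 CPM in B16OVA WT and 112 ± 10.9 CPM in MC38 WT (log2 fold -7.47, SE 0.97, adjusted p = 3.07e-06). The other lower members were Pcdhgb7 and Pcdhgb6 (3 counts each in B16OVA WT, 66 and 31 in MC38 WT), Pcdhgb8 (log2 fold -2.81), Pcdhb7 (-2.28) and 3 more. Pcdhb7 lost its call without MC38 WT replicate 1 (adjusted p = 0.0528). Pcdhgb6 lost it without B16OVA WT replicate 5 or 6 or MC38 WT replicate 1 or 2, and Pcdhgb8 without B16OVA WT replicate 4, 5 or 6 or MC38 WT replicate 2 (adjusted p up to 0.108 for both).

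Against MCA101OVA WT, 13 of 30 members were higher in B16OVA WT and 5 lower, where 43.2% of all genes were called. Of the 29 members that passed the low-count filter without B16OVA WT, 12 were called higher and 5 lower. Pcdhgb2 had 73.03 ± 9.39 CPM in B16OVA WT (n = 6) and 0.909 ± 0.0709 CPM in MCA101OVA WT (n = 3), a log2 fold of 6.28 (SE 0.44, adjusted p = 1.99e-14). The other leading genes lay close together in the beta cluster: Pcdhb11 (log2 fold 4.66), Pcdhb9 (4.18) and Pcdhb12 (3.52). Pcdhb10, which lies among them, had 69 counts in B16OVA WT against 1 in MCA101OVA WT. It passed the low-count filter only through B16OVA WT, so its direction was set by the filter. Pcdhgc3 had a log2 fold of -10.56 (SE 1.01, adjusted p = 4.74e-11), followed by Pcdhgb7 (-4.28), Pcdhgb6 (-3.75), Pcdhga6 (-3.26) and Pcdhgb8 (-2.09). Pcdhgb6 lost its call without MCA101OVA WT replicate 2 (adjusted p = 0.0565), and Pcdhgb8 lost it without any 1 of 8 libraries.

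Among tissues, brain had the highest alpha, beta and gamma sums. The sums were 50.02 to 56.1 CPM of alpha, 137 to 150 CPM of beta and 327.3 to 363 CPM of gamma over the 4 brain libraries, against at most 16.7, 93.5 and 265 CPM in any of the 44 libraries of the 11 other tissues. All 5 neuron markers were above 1 CPM in brain and summed to 4041 to 4513 CPM, against at most 65.6 CPM elsewhere. Of the 56 members tested, 10 alpha genes passed the low-count filter only through brain, so their direction was set by the filter. The other 46 were all called higher in brain than the mean of the other tissues, where 36.2% of all genes were called higher, 35% lower and 71.2% in either direction. The median log2 fold was 2.82 over 21 beta genes and 2.87 over 22 gamma genes, against -0.17 over all genes. Every brain library was above every library of the other tissues for 13 of 14 alpha, 13 of 22 beta and 15 of 22 gamma genes. The 13 alpha genes include the 10 that passed the filter only through brain. The share of all genes that separate brain in this way was not counted, so these numbers have no background to be read against.

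Most alpha genes were close to 0 outside brain, and fitted folds against tissues with no count depend on the prior count, so they are given as counts. Pcdha6 had 1.46, 1.63, 1.67 and 1.42 CPM in brain, from 539 counts, and at most 20 counts in any other tissue, with none in 7 of 11. Pcdha7 had 563 counts in brain and at most 16 in any other tissue, with none in 6 of them. Pcdha2 had 712 against at most 19, and Pcdha11 with the identifier ENSMUSG00000102206 had 577 against at most 25. The smallest differences were those of Pcdhgb5 (log2 fold 1.95, SE 0.14, adjusted p = 8.87e-16), Pcdhgb4 (1.96), Pcdhb4 (1.96), Pcdhb21 (2.15) and Pcdhb16 (2.16). Pcdhgb5 had 6.57, 5.46, 4.85 and 7.11 CPM in brain and 5.57, 5.94, 7.67 and 7.47 CPM in lung, so brain and lung overlapped for it.

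Within brain, levels per kilobase of own exon compare the members with each other, with own exons taken as bases that no other gene of the same strand shares. Pcdhac2 led alpha with 9.32 CPM per kb, ahead of Pcdha12 with 1.79 and Pcdhac1 with 1.103, and the lowest were Pcdha11 with the identifier ENSMUSG00000102206 (0.358), Pcdha8 (0.238) and Pcdha4 (0.00519). Pcdha4 shares bases with a readthrough gene that had no counts and was near 0 in all groups. Beta levels ran more evenly, from Pcdhb20 with 3.71 CPM per kb, Pcdhb9 with 3.68 and Pcdhb17 with 3.52 to Pcdhb2 with 0.45, Pcdhb21 with 0.442 and Pcdhb1 with 0.0347. Pcdhgc3 led gamma with 32.3 CPM per kb, followed by Pcdhga11 with 8.52 and Pcdhgb6 with 7.56, and Pcdhgb4 (1.37), Pcdhgb5 (1.30) and Pcdhgb8 (0.79) were lowest. If bases shared with genes of the opposite strand are left out as well, Pcdhb12 has 6.94 CPM per kb and leads beta, against 2.53 with strand, and Pcdha11 of identifier ENSMUSG00000102206 has 1.30. Pcdhac2 and Pcdhgc3 then still lead their clusters. Pcdhga10 would have no base of its own left without strand, yet it had 9.28 CPM in brain. The second identifier under the name Pcdha11, ENSMUSG00000007440, had 0.819 CPM per kb and lies where RefSeq places Pcdha10.

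The C-type genes differed in their tissue pattern. Pcdhgc5 had 14.01, 42.3, 50.2 and 12.003 CPM in the 4 brain libraries and a log2 fold of 5.14 against the other tissues (SE 0.22, adjusted p = 1.14e-22). Pcdhgc4, which mouse interneurons need to survive, had 18.5, 13.6, 13.4 and 15.5 CPM in brain (log2 fold 3.93, SE 0.16, adjusted p = 1e-23). Its next highest tissue was colon, with 4.21, 4.88, 5.03 and 4.91 CPM, above all other tissue means (2.18 CPM or less) and called against the 10 other tissues outside brain (log2 fold 2.62, SE 0.18, adjusted p = 5.84e-16). Pcdhgc3 was at 118, 94.98, 90.4 and 134 CPM in brain and 116, 139, 126 and 138 CPM in lung, which overlapped. Pcdhac2 had 26.6, 30.3, 26.7 and 29.3 CPM in brain and 13.55, 14.3, 15.9 and 15.6 CPM in lung, with no overlap, and averaged 0.447 CPM or less in every other tissue. Pcdhac1 averaged 2.82 CPM in brain, 0.349 CPM in lung and 0.0204 CPM or less elsewhere.

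**Figure D5:**
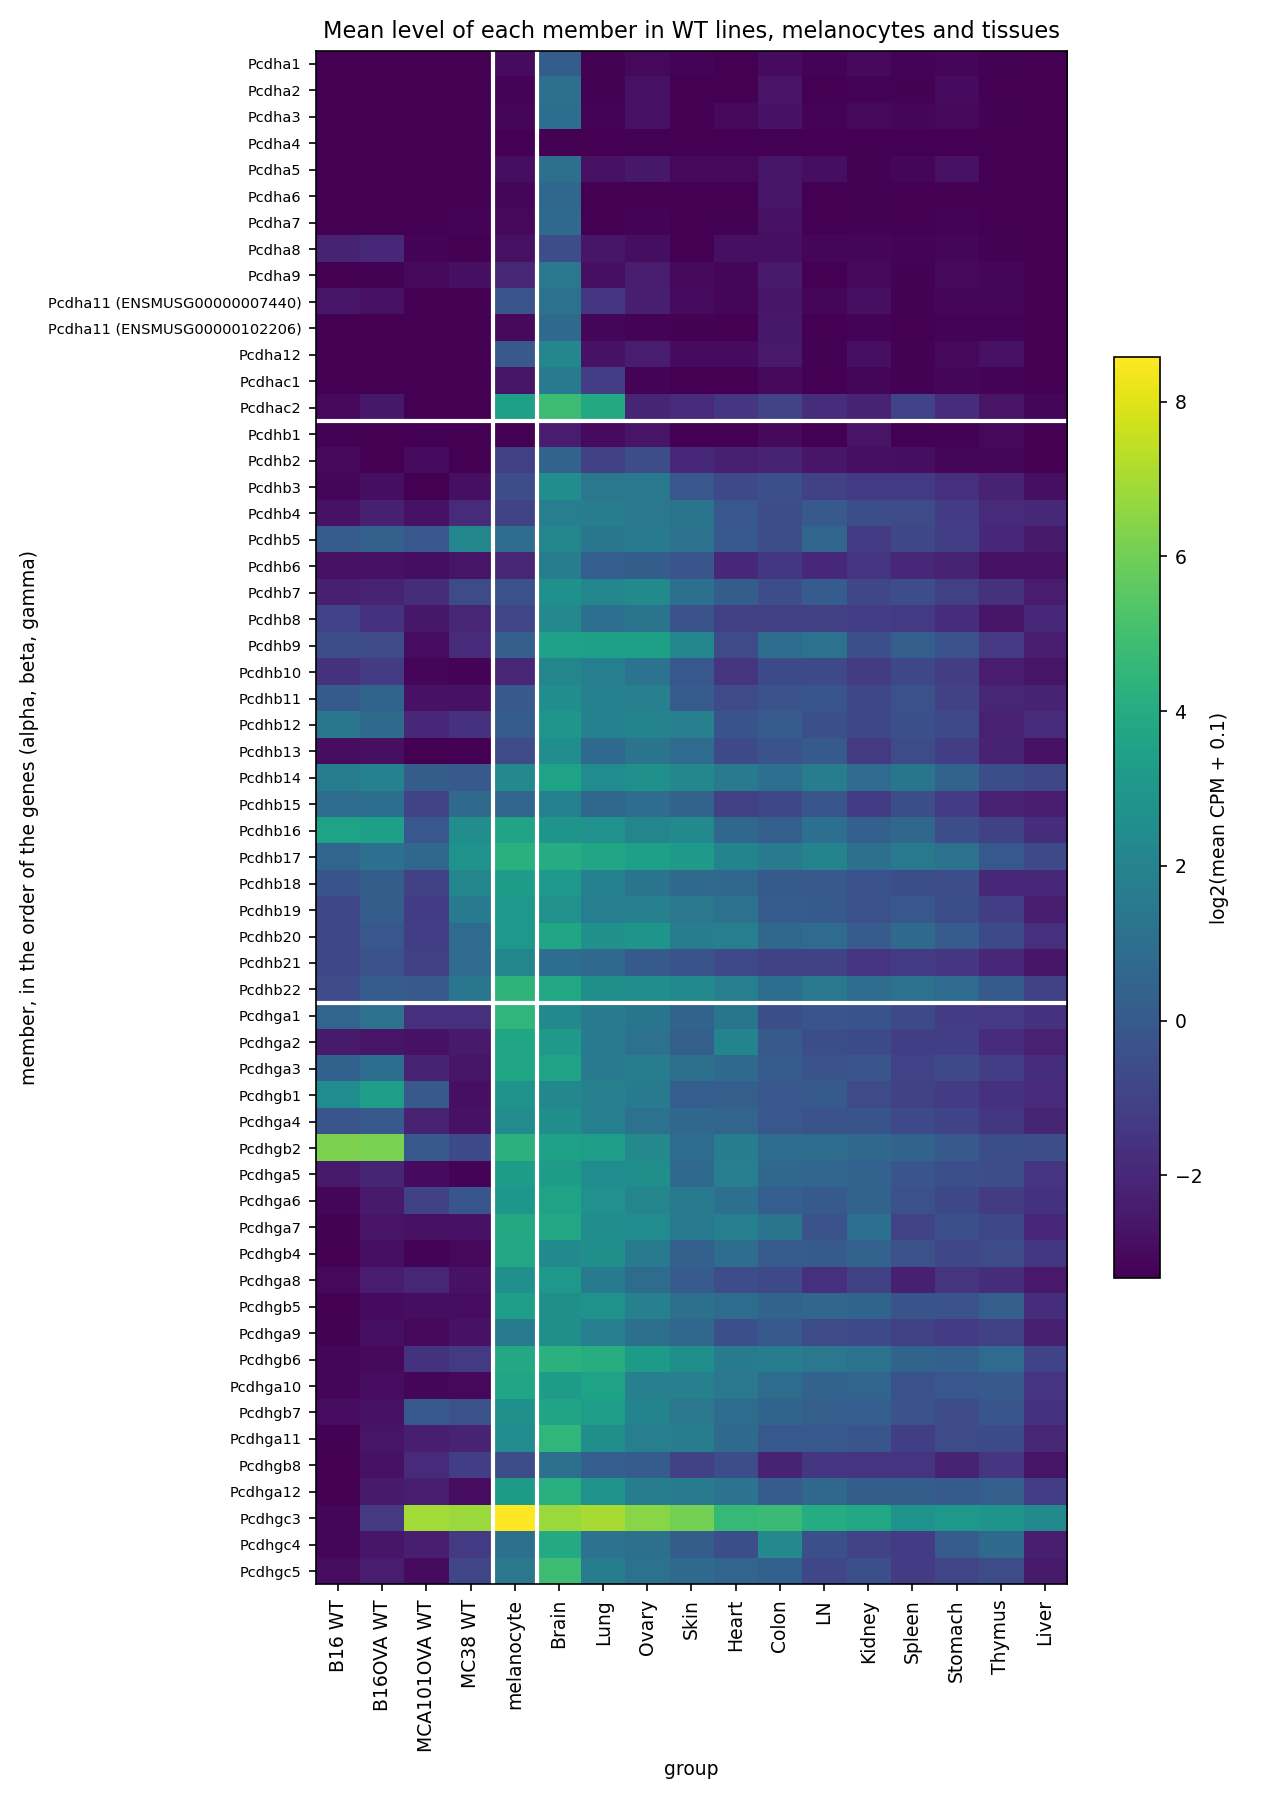
Mean level of every member as log2(mean CPM + 0.1), with genes in chromosomal order by cluster and columns for the WT libraries of each line, melanocytes and tissues. Brain is high across all 3 clusters, lung and melanocytes have Pcdhac2 but few other alpha genes, and the WT lines each show 1 strong gamma gene.

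Lung and ovary came next among the tissues. Lung sums averaged 15.7 ± 1.19 CPM of alpha, 85.6 ± 6.28 of beta and 250 ± 18.4 of gamma (SD, n = 4), led by Pcdhac2 (14.8 CPM), Pcdhb17 (12.7 CPM) and Pcdhgc3 (130 CPM). In comparison with the 10 other tissues outside brain, 49 of 56 members were called higher in lung, where 31.5% of all genes were. Pcdhac2 had the largest log2 fold there, 6.41 (SE 0.35, adjusted p = 6.77e-19), followed among genes with counts in every tissue by Pcdhb9 with 3.11 and Pcdhb10 with 2.95. Pcdhac1 had 148 counts in lung and at most 7 in those tissues, and Pcdha11 of identifier ENSMUSG00000007440 had 117 against at most 27. All 21 beta and 22 gamma genes tested were among the lung calls. Ovary had as many calls, 49 of 56 against 32.8% of all genes, with sums of 81.3 ± 5.94 CPM of beta and 158 ± 23.1 of gamma but 0.641 ± 0.162 of alpha. Its leading genes were Pcdhb9 (10.6 CPM), Pcdhgc3 (87.7 CPM) and Pcdhac2 (0.134 CPM), and its largest log2 fold was that of Pcdhb2 (3.03, SE 0.29, adjusted p = 8.34e-12), ahead of Pcdhb9 (2.82), Pcdhb7 (2.36) and Pcdhb3 (2.32). Pcdha2 was called too, with 12 counts in ovary and none in 4 of the other tissues. The calls with the smallest log2 folds were Pcdhb14 in lung (1.18) and Pcdhga12 in ovary (0.627).

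Skin and heart were intermediate. Skin averaged 52.3 ± 4.23 CPM of beta and 110 ± 8.01 of gamma, and 34 of 56 members were called higher, where 30.5% of all genes were. 20 of these were beta genes, led by Pcdhb12, with 3.87, 3.60, 3.32 and 3.43 CPM in skin (log2 fold 2.02, SE 0.15, adjusted p = 3.09e-15), Pcdhb16 (1.69) and Pcdhb6 (1.65). The 1 member called lower in skin was Pcdha3, which had no count there and at most 18 in the other tissues outside brain. Heart averaged 26.1 ± 5.26 CPM of beta and 66.1 ± 28.9 of gamma, and 39 of 56 were called higher against 29% of all genes. Its largest log2 fold was that of Pcdhga2, with 3.84, 3.52, 5.66 and 3.09 CPM in heart and 2.69 to 3.38 CPM in lung (log2 fold 3.43, SE 0.14, adjusted p = 1.53e-23). Pcdhga1 (2.38), Pcdhga7 (2.23) and Pcdhga5 (2.11) followed, and Pcdhb9 was lower (-0.615). Pcdha8 was called higher on 14 counts. With TMM scaling, the mean gamma sum was 99.5 CPM in heart and 89.9 CPM in skin, so their order depends on the scaling. Heart replicate 3 had 28.8 CPM of neuron markers and 109 CPM of gamma, against 4.85 to 11.2 and 49.8 to 54.5 CPM in the other heart libraries.

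In colon, 12 of 13 alpha genes tested were called higher than in the 10 other tissues outside brain. They were among 16 of 56 members, where 30.2% of all genes were called higher and 54.2% in either direction, though their sum was 1.08 ± 0.25 CPM. Pcdha6 had 0.0666, 0.0251, 0.0934 and 0.0429 CPM in colon, from 20 counts, and at most 1 count in any other tissue outside brain. Pcdha11 of identifier ENSMUSG00000102206 had 25 counts in colon and Pcdha7 had 16, against at most 5 and 3 in any of those tissues. 5 members were lower in colon (24% of all genes), Pcdhgb8 by most (-1.36). Neuron markers summed to 50.6 to 63.1 CPM in colon, with 4 of 5 averaging at least 1 CPM. In lung, where 6 of 13 alpha genes were called, they summed to 45.8 to 65.6 CPM, with 2 of 5 at that level. Glia markers summed to 94.5 to 125.6 CPM in colon and 65.1 to 84.2 CPM in lung. The part of neuron RNA in the colon levels was not tested. Kidney had Pcdha1 (9 counts) and Pcdhga7 (0.805) called higher and 9 members lower, against 31.9% and 26.4% of all genes, and its alpha sum was 0.922 CPM in replicate 2, which held 47.4 CPM of neuron markers, and 0.102 to 0.170 CPM in the others, which held at most 2.00 CPM.

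By the gamma sum, the lowest tissues were liver, spleen, stomach and thymus. For beta they were liver, thymus, stomach and kidney, and for alpha liver and thymus were lowest. Liver sums averaged 0.0172 ± 0.015 CPM of alpha, 3.32 ± 0.428 of beta and 9.16 ± 1.63 of gamma, and 44 of 56 members were called lower, where 36.6% of all genes were, led among members with a count in liver by Pcdhb2 (log2 fold -3.39, SE 0.82, adjusted p = 0.000423), which had 1 count there. Pcdha12 was called lower with no count in liver and at most 27 in any of the other tissues outside brain. Thymus had 42 called lower (29.3% of all genes), led by Pcdhb12 (log2 fold -3.45), and 1 higher, Pcdhgc4 (log2 fold 0.54, SE 0.21, adjusted p = 0.024). Spleen had 33 called lower (30.8%), led by Pcdhga8 (-2.36). Stomach had 26 lower and 5 higher (26.1% and 33.2% of all genes), with Pcdha2, Pcdha5, Pcdha7 and Pcdha1 among the higher, on 11, 16, 3 and 6 counts in stomach. Lymph node had 19 lower, led by Pcdhga8 (-1.56), and Pcdhb5 higher (0.802), where 29% and 32.1% of all genes were called. The beta sum separated lymph node (25.5 ± 3.34 CPM) from thymus (5.71 ± 1.72 CPM) without overlap, while the gamma sums of thymus, stomach and spleen overlapped at 20.2 ± 10.9, 19.96 ± 9.53 and 19.3 ± 7.86 CPM. By mean level, the leading gene was Pcdhgc3 for gamma in all 12 tissues, and it led without any 1 library too. Pcdhac2 led alpha in all 12, but not without kidney replicate 2 or thymus replicate 1, when Pcdha12 led. Pcdhb17 led beta in all but ovary (Pcdhb9) and thymus (Pcdhb22), and the beta leader changed when 1 library was left out in kidney, liver, ovary or thymus.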

How the data were processed

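The table used holds raw counts per Ensembl gene for all libraries, deposited by the authors. Per the submitters' processing notes, Trim Galore, FastQC, STAR and HTSeq were used with the mm10 build; the sources used here give no version, no annotation and no choice of strand. A deposited library-size-normalized table was not used. The members and gene lists were chosen with earlier results of these data known.

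Counts were fitted with edgeR 4.0.16 (limma 3.58.1, R 4.3.3): TMM scaling, filterByExpr by group (minimum count 10), the quasi-likelihood test with terms for group and, in the line and tissue fits, for the prefix of the library code in the labels, whose meaning they do not give, and Benjamini-Hochberg adjustment over all genes tested (16809 in the fit of 45 line libraries, 16778 in that of 23 libraries of 1 code prefix, 26242 in that of 48 tissue libraries). Genes with an adjusted p under 0.05 were called. SE is the log2 fold over the root of F. The SD is over libraries. The counting intervals (95%, exact) cover counting error only. DESeq2 1.42.0 and Python 3.11.15 were also used. The line fit tested 30 of the 58 members. The highest group mean among the 28 untested members was 0.305 CPM. Own exon lengths came from GENCODE vM21. Named members were those called in a KO comparison, the C-type genes, the leading gene per group and cluster, and, in other comparisons with over 10 calls, up to 5 of the highest and lowest log2 folds. The fit was tested on simulated data.

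The labels give no replicate numbers and pair no libraries, so replicates are numbered in accession order and the fits behind the report are unpaired. Members that passed the low-count filter only through 1 group, or only through KO libraries, were found by repeating the filter without those libraries, a step added after the data were seen. No 2 libraries of a group were identical.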

Additional observations from a re-analysis of the deposited data

Results flagged for a closer look

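The single highest library lay far from the others in 6 of 64 sets of values, where chance gives about 1 in 20. A set is a cluster sum or the level of a member in a group of 4 to 10 libraries, so a group enters more than once. B16OVA Ctrl replicate 5 and heart replicate 3 recur among the 6, so these are not independent and their number is not read against that rate. B16OVA Ctrl replicate 5 had an alpha sum of 0.597 CPM, with the next library at 0.26 CPM, and 0.268 CPM of Pcdhgb7, with the next at 0.0545 CPM. Heart replicate 3 had an alpha sum of 1.01 CPM, with the next at 0.28 CPM, and a gamma sum of 109 CPM, with the next at 54.5 CPM. Kidney replicate 2 had an alpha sum of 0.922 CPM, with the next at 0.17 CPM. Liver replicate 4 had a beta sum of 3.95 CPM, with the next at 3.15 CPM.

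The KO effect differed between lines by the interaction test for 2 genes. Pcdhgb2 differed between MCA101OVA and B16OVA by 3.80 on the log2 scale and between MC38 and B16OVA by 2.79. Pcdhgb1 differed between MCA101OVA and B16OVA by 3.04.

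The 7 WT line libraries with the code prefix B176, 1 per line and in no comparison, had signal in the same clusters. The beta and gamma sums were 42.3 and 222 CPM in MC38-OVA, 16.4 and 122 CPM in MC38-GFP, 11.4 and 104 CPM in MC38, and 17.7 and 128 CPM in MCA101-OVA. They were 26.95 and 147 CPM in MCA101, 15.9 and 32.3 CPM in B16-OVA, and 14.5 and 35.49 CPM in B16. The alpha sum passed 3 counts in B16-OVA (0.166 CPM) and MCA101 (0.0688 CPM). Pcdhgc3 led the gamma sum in the MC38 and MCA101 libraries and Pcdhgb2 in the B16 libraries.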

How the results depend on the processing

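The 143 calls of a member in a KO, interaction, WT or brain comparison were recomputed under the alternatives, and none reversed its sign. They include members that passed the low-count filter only through the group where they were high. The direction of those was set by the filter, so their unchanged sign is no support. The numbers below were not split by this. For the 11 tissues set against each other only the summed numbers of calls were recomputed. Of 797 recomputed values other than those that leave out a library, 774 stayed past the threshold and 23 did not; of 5387 values without 1 library, 5306 stayed and 81 did not. The number of members called in KO against Ctrl was 6 in B16 with Ctrl and WT together, 6 with WT in place of Ctrl and 1 with the 2 groups alone. In B16OVA it was 7 with DESeq2, 7 with Ctrl and WT together and 8 with WT in place of Ctrl. In MCA101OVA it was 1 with WT in place of Ctrl and 0 with the 2 groups alone. In MC38 it was 2 without the low-count filter, 2 with DESeq2, 3 with Ctrl and WT together and 0 with the 2 groups alone; fewer libraries then estimate the spread. The interaction of MCA101OVA gave 4 with DESeq2, 1 without the code prefix term and 1 without the libraries of low slope, and that of MC38 gave 2 without the filter and 2 without those libraries. The cause of the other changes was not tested.

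With 1 library left out at a time, the counts for KO against Ctrl were 2 to 3 for B16. They were 3 to 6 for B16OVA, 1 to 3 for MCA101OVA and 1 to 2 for MC38. They ranged from 1 to 2 in both the MCA101OVA and the MC38 interaction and stayed at 0 for the B16 interaction, for Ctrl against WT in every line and for B16OVA against B16. For B16OVA WT they ranged from 15 to 19 against MCA101OVA WT, 32 to 36 against melanocytes and 14 to 20 against MC38 WT. They ranged from 56 to 57 in brain and from 195 to 206 for calls higher summed over the 11 other tissues.

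The labels pair no libraries. Sets of KO, Ctrl and WT libraries were formed from the order of the library codes, and KO and Ctrl of a set deviated from their group means together in all 3 pairs of B16 (lowest correlation 0.588), 6 of B16OVA (0.489), 3 of MCA101OVA (0.177) and 3 of MC38 (0.337), which is a hint from the data and not from the design. In tissues, 88 of 264 pairs of sets formed in that way were above 0.1. With the replicate block by library set, B16OVA KO against Ctrl gave 5 members (Pcdhb12 added, log2 fold -1.49, adjusted p = 0.0237) and B16OVA WT against MCA101OVA WT gave 17, and no other line call changed. In tissues, the block by sets formed in the same way gave 56 in brain and 197 over the other tissues. TMM scaling in place of plain library size moved 21 of 75 cluster sums by more than 1 SD. At totals of 17186211 counts or more, 28 members lay under the low-count filter in the lines, and changes in them were not detectable at this depth. Pcdhga11 is not among them, as it passed the filter through KO libraries of the lines and was not called in B16OVA. In the edgeR fit without the filter it was called there (log2 fold 3.13, adjusted p = 0.0104).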
